A study of Homo sapiens with 12 samples.

Results

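Long non-coding RNAs (lncRNAs) that were well expressed in the libraries labelled U138MG were followed through inhibition of the phosphatidylserine synthase PTDSS1 in 2 cancer cell lines. The members were the genes typed lncRNA in the count table of those libraries whose mean over all 6 libraries, treated and untreated together, was at least 5 CPM (the raw count scaled to the library total). This left 804 members of 34880 lncRNA entries, of which 14524 had at least 1 count. The same Ensembl identifiers were then read in the KYSE30 table, which lists 557 of them. Of the members, 21 have names starting with SNHG, the host genes of small nucleolar RNAs (snoRNAs), and 20 of these are in the KYSE30 table. At the limit itself, the last member inside was ENSG00000300739 at 5.0006 CPM, and the closest gene outside it was ENSG00000270361 at 4.9996 CPM. The level in the libraries labelled U138MG therefore chose the members and is a description. The level in KYSE30 took no part in the choice.

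The 4 groups of 3 libraries each, described by their labels as biological replicates, were sequenced from poly-A RNA. KYSE30, an esophageal squamous cell carcinoma line whose genotype is labelled WT, and U138MG, which the study uses as a glioblastoma line, were each cultured for 48 h with DMSO, the vehicle, or with 100 nM PTDSS1i, the small-molecule inhibitor DS55980254. Each line is a cell culture model and was a batch of its own in the labels, so that batch and line cannot be told apart. The labels give the U138MG cultures the medium of KYSE30 and the study's methods give another. Totals per library lay between 18800932 and 26514658 counts. The libraries labelled U138MG went against a glioblastoma label. Under DMSO the squamous keratin gene *KRT5* was at 1470 ± 83.4 CPM (SD, n = 3), *CDH1* at 463 ± 2.14 CPM and *TP63* at 276 ± 7.36 CPM, whereas *GFAP* was at 2.36 ± 0.183 CPM, *VIM* at 0.206 ± 0.0662 CPM, and *S100B* and *OLIG2* had 0 counts in every library. Not every marker went this way, as *CD44* and *SOX2* of the glial list were at 406 ± 5.67 and 38.9 ± 1.89 CPM and the mesenchymal *SPARC* at 713 ± 13.1 CPM, and the squamous keratins *KRT14* and *KRT6A* were at 0.198 ± 0.147 and 0.488 ± 0.111 CPM. They are called the libraries labelled U138MG throughout. In KYSE30, *CDH1* was at 514 ± 25.5 CPM and *TP63* at 98.2 ± 7.41 CPM, but *KRT5* at 0.0608 ± 0.0672 CPM. Of 11 squamous markers, 10 were tested in each line, and under PTDSS1i 8 rose and 1 fell in KYSE30, while 5 rose and 5 fell in the other libraries. Of 10 glial markers, 2 rose and 0 fell of 4 tested in KYSE30, and 2 rose and 3 fell of 6 tested in the other libraries. Of 7 mesenchymal markers, 2 rose and 2 fell of 4 tested in KYSE30, and 1 rose and 2 fell of 3 tested in the other libraries, where the leukocyte marker *CD68* went from a mean of 28.4 to 103 CPM. The part of these shifts in the lncRNA results was not tested. Among all genes tested, 30.1% rose and 32% fell in KYSE30, and 33.9% rose and 33.6% fell in the other libraries.

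LncRNAs are transcripts with no long conserved reading frame. Some are structural, such as *NEAT1*, the scaffold of nuclear paraspeckles, and some are mainly carriers. The SNHG genes carry snoRNAs in their introns. The snoRNAs guide chemical modification of ribosomal RNA, while the spliced host transcript is often read by ribosomes at a short frame and removed by nonsense-mediated decay (NMD), so that its level depends on its synthesis and on translation. Many snoRNA host genes start transcription at a C followed by a run of pyrimidines, the terminal oligopyrimidine feature of genes of the translation machinery. Other lncRNAs are the primary transcripts of microRNAs, and many more lie antisense to, or divergent from, a protein-coding gene.

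Promoter windows, 250 bases before to 50 after the RefSeq start (GRCh38.p14), were found for 330 of the members and 18 of the SNHG genes. A C at the start base followed by 4 pyrimidines was present in 5 of the 18 SNHG windows, in 3.94% of the member windows and in 4.04% of all 27305 windows of the table. The 5 SNHG starts are shown because they differ in length and because their genes did not move alike. Each line holds 50 bases before the start and 50 from it, 5′ to 3′ on the strand of the gene, and the capitals mark the unbroken pyrimidine run from the start base. The run was longest in *SNHG4* with 13 bases and *SNHG12* with 11 bases, and it was 6 bases in *SNHG19* and *SNHG32* and 5 bases in *SNHG5*. The windows are chr5:139274051-139274150 (+) for *SNHG4*, chr1:28581824-28581923 (-) for *SNHG12*, chr16:2155309-2155408 (-) for *SNHG19*, chr6:31834866-31834965 (+) for *SNHG32* and chr6:85678684-85678783 (-) for *SNHG5*.
SNHG4: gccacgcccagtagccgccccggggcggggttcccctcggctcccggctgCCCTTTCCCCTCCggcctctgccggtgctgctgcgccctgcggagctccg
SNHG12: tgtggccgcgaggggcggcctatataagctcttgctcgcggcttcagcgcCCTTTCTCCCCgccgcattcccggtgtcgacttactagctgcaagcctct
SNHG19: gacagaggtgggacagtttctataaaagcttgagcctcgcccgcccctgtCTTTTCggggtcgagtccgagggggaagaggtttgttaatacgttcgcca
SNHG32: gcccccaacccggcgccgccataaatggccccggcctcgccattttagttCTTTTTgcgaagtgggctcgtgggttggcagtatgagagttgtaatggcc
SNHG5: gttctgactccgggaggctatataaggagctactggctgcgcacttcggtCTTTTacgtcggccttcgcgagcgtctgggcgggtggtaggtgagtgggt

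Motifs of stress-related factors were counted in the same windows on both strands. The cyclic AMP response element TGACGTCA was in 3.94% of the member windows and 1.98% of all windows, the ATF4-C/EBP composite TGATGNAA in 2.12% and 3.67%, and the E-box CACGTG in 7.58% and 7.43%. The AP-1 site TGANTCA was in 7.58% of the member windows and 7.76% of all, the antioxidant response element TGACNNNGC in 17.0% and 13.6%, and the E2F site TTTCCCGC in 1.21% and 1.66%. The AP-1 and antioxidant patterns can overlap, since both hold TGA. None of the 18 SNHG windows held the cyclic AMP, ATF4-C/EBP, AP-1 or E2F letters, which says only that those letters are not in these windows. The promoters of *LUCAT1* and *DLGAP1-AS2*, lncRNAs with higher levels under PTDSS1i, are printed whole. Capitals mark in *LUCAT1*, at chr5:91314353-91314652 (-), an AP-1 match that lies inside an antioxidant match from base -54, and in *DLGAP1-AS2*, at chr18:3603487-3603786 (+), from 5′ to 3′ an E-box at -231, an ATF4-C/EBP match at -201 and AP-1 matches at -147 and -99, all counted from the start. They were chosen after their values and matches were seen, and a match is not a shown binding site. The window of *MIR22HG*, which also rose in KYSE30, held none of these patterns.
LUCAT1: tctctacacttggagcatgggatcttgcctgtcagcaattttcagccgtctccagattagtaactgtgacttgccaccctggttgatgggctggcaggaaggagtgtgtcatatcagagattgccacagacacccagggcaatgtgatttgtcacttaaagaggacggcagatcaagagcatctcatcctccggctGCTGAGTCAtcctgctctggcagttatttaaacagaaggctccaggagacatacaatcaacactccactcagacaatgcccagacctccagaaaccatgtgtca
DLGAP1-AS2: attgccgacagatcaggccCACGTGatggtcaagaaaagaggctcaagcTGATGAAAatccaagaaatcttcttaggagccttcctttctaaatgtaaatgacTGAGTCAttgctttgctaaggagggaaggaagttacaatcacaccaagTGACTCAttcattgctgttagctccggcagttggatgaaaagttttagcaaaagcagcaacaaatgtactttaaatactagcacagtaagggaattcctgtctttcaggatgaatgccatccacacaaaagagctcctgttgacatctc

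The members were mostly of low abundance. Their median was 10.1 CPM in the libraries labelled U138MG, 399 lay between 5 and 10 CPM, and 24 exceeded 100 CPM. By raw CPM the leading members were *NEAT1* at 1830, *MALAT1* at 1479, *H19* at 1241, *NORAD* at 805, *TALAM1* at 546 and *SNHG29* at 427. Relative to exon length, known for 549 members, *H19* led with 428 CPM per kb, followed by *MALAT1* with 168, *NORAD* with 151 and *SNHG29* with 114 CPM per kb, and *NEAT1* stood at 80.4 CPM per kb. *TALAM1* is the antisense transcript of *MALAT1*. The library kit does not mark strand and the strand setting of the counting is not stated, so the reads of these 2 genes cannot be told apart, and the same holds for other overlapping genes. GENCODE release 29 holds 549 of the members. It may differ from the annotation the authors counted on. Of the 549, 362 shared exon bases with another gene. By name, 173 members were antisense (-AS), 61 divergent (-DT), 76 long intergenic (LINC), 16 microRNA hosts and 73 carried a pseudogene symbol, while 312 had only an identifier. Together the members held between 0.921% and 1.04% of the counts of each KYSE30 library. In the libraries labelled U138MG they held 2.31% to 2.38% under DMSO and 1.97% to 2.04% under PTDSS1i.

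In KYSE30 more of the members fell than rose after PTDSS1i. Of 457 members that passed the filter on low counts, 101 rose and 151 fell at an adjusted p under 0.05. Every adjusted p given here, unless named otherwise, is from the quasi-likelihood test of edgeR, adjusted after Benjamini-Hochberg over the whole table, here 16389 genes. Among all genes tested, 30.1% rose and 32% fell, 62% together, beside 252 of the members. The members that rose made up 22.1% of those tested, a smaller share than in the background, and those that fell 33.0%, close to it. Beyond a log2 fold change of 1 in either direction there were 30 and 29 members, against 6.4% and 7.04% of all genes. The median log2 fold change was -0.07 over the members and -0.03 over all genes. The treatments did not overlap in 266 members, where 66.3% of all genes tested did not overlap. Of 58 divergent members, 24 fell (41.4%) and 9 rose (15.5%). Of 55 LINC members, 18 fell (32.7%) and 9 rose (16.4%), and of 135 antisense members 49 fell (36.3%) and 32 rose (23.7%). Members with only an identifier had 33 higher (29.2%) and 20 lower (17.7%) of 113. The share of LINC members that fell and the share of identifier-only members that rose were thus near those of all genes.

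**Figure D1:**
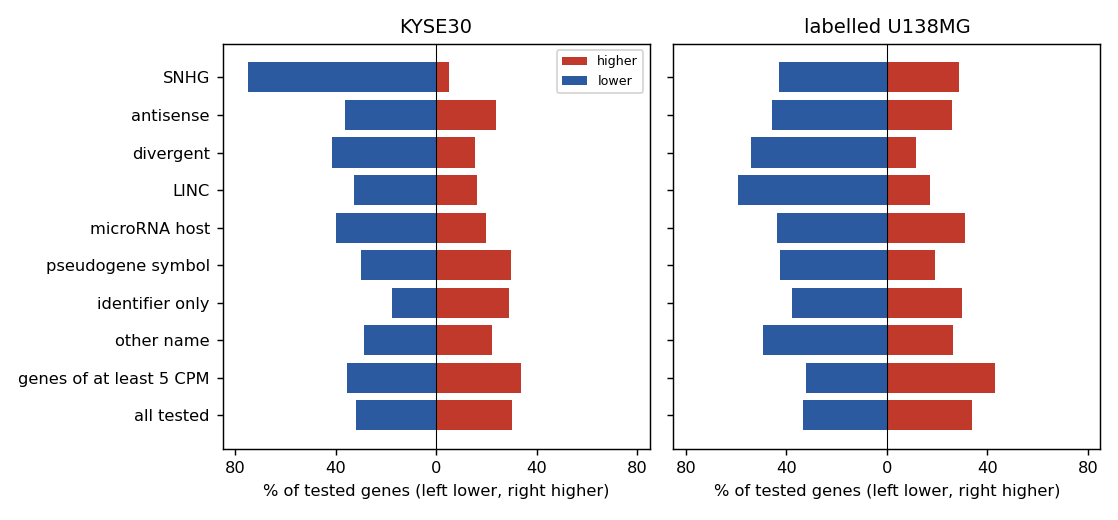
Percent of tested genes that were higher (right, red) or lower (left, blue) under PTDSS1i at an adjusted p under 0.05, by the naming class of the member lncRNAs and for all genes of at least 5 CPM and all genes tested, in KYSE30 and in the libraries labelled U138MG. In KYSE30 the SNHG bar extends to 75.0% lower, and in the libraries labelled U138MG the LINC bar to 59.2% lower.

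In the libraries labelled U138MG all 804 members were tested, as their choice ensures, and 202 were higher and 358 lower under PTDSS1i. Of all 17666 genes tested, 33.9% were higher and 33.6% lower, 67.5% together, beside 560.0 of the members. Past a log2 fold change of 1 lay 51 members on the higher side and 94 on the lower, against 8.19% and 11.6% of all genes. Of the members, 140 had a mean of at least 5 CPM under DMSO only and 38 under PTDSS1i only, so that their choice leaned on the treatment in which they were higher. Among the 626 members at or above 5 CPM under both treatments, 165 rose and 235 fell, with a median log2 fold change of -0.03. Protein-coding genes chosen by the same level had 4902 higher and 3464 lower of 11035. The treatments did not overlap in 564 members, against 71.4% of all genes tested. The LINC members had 45 lower and 13 higher of 76, and the divergent members 33 lower and 7 higher of 61. Restricted to those at or above 5 CPM under both treatments, the LINC members had 29 lower and 11 higher of 58, and the divergent members 18 lower and 6 higher of 44. A member that reached 5 CPM through only 1 treatment is given below with its values in these libraries and without a p.

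The SNHG genes fell in KYSE30. Of 20 tested, 15 fell and 1 rose, with a median log2 fold change of -0.51, beside 32% lower and a median of -0.03 over all genes. In the libraries labelled U138MG 9 were lower (42.9%) and 6 higher (28.6%) of 21, with a median of -0.11. Over all genes there, 33.6% were lower and 33.9% higher, with a median of -0.03. Of the 19 at or above 5 CPM under both treatments 8 fell and 6 rose. The plot of SNHG changes shows both lines side by side. The deepest SNHG fall in KYSE30 was that of *SNHG26*, from 14.8, 13.3 and 14.9 normalized CPM (scaled by edgeR's TMM factors) in the DMSO libraries to 3.68, 4.38 and 5.73 under PTDSS1i. This came to -1.63 on the log2 scale, with a standard error (SE) of 0.13 and an adjusted p of 4.66e-10. The exons of *SNHG4*, which carries an H/ACA snoRNA, overlap *MATR3* in the annotation, so that reads of *MATR3* may be counted on it. *SNHG4* had 90.4, 79.8 and 90.9 normalized CPM under DMSO and 32.9, 36.8 and 34.0 under PTDSS1i. It fell by 1.33 on the log2 scale (SE 0.065, adjusted p = 1.16e-13). In both genes every treated library lay below every control library, and both also were lower in the other line.

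*SNHG1*, whose introns encode several box C/D snoRNAs, was among the more abundant hosts in KYSE30, with 107, 99.0 and 107 normalized CPM under DMSO. Under PTDSS1i it had 49.3, 49.2 and 53.5, a log2 fold change of -1.04 (adjusted p = 8.73e-13). Every treated library lay below every control library. *SNHG15* went from 21.9, 19.6 and 21.9 to 9.96, 10.1 and 12.2 normalized CPM (log2 fold change -0.97, adjusted p = 9.87e-09), and *SNHG20* from a mean of 16.6 ± 0.856 to 8.52 ± 0.408 (SD, n = 3; -0.96, adjusted p = 9.95e-09). Smaller falls were seen in *SNHG10* (-0.83), *SNHG17* (-0.72), *SNHG3* (-0.67), *SNHG8* (-0.65), *SNHG19* (-0.60), *SNHG6* (-0.41), *SNHG16* (-0.30), *SNHG29* (-0.26), *SNHG12* (-0.25) and *SNHG32* (-0.19). *SNHG29* was the most abundant of them, with 951 ± 33.2 normalized CPM under DMSO and 795 ± 18.4 under PTDSS1i. The single rise was that of *SNHG9*, from 1.03, 0.453 and 0.807 to 1.26, 1.27 and 1.24 normalized CPM, and it rested on few counts and on the settings: its adjusted p was 0.0375 in edgeR's test and 0.112 in DESeq2. Calls near the threshold also rested on single libraries. *SNHG9* did not pass without DMSO replicate 2 or 3 or without any single PTDSS1i library (adjusted p between 0.0729 and 0.175). *SNHG12* and *SNHG32* did not pass without DMSO replicate 1 (adjusted p = 0.247 and 0.121), PTDSS1i replicate 1 (0.198 and 0.0699) or PTDSS1i replicate 2 (0.0821 and 0.12). *SNHG7* (0.02), *SNHG30* (-0.07), *SNHG11* (-0.12) and *SNHG5* (-0.31) did not pass the test.

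**Figure D2:**
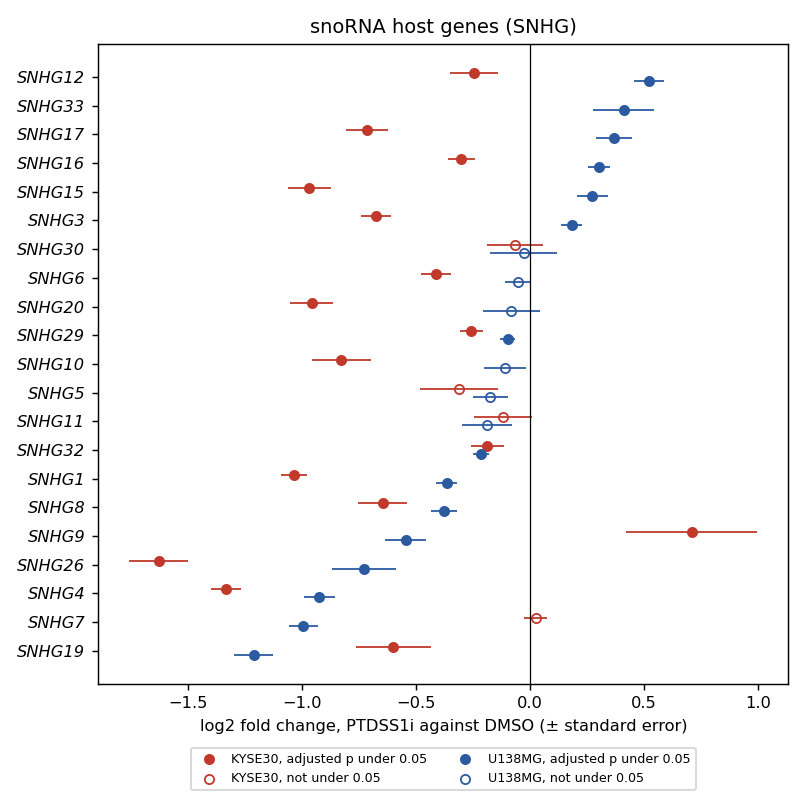
Log2 fold change of PTDSS1i against DMSO for each SNHG member (points, with standard errors as bars) in KYSE30 (red) and in the libraries labelled U138MG (blue), with filled points for an adjusted p under 0.05. The red points lie left of the blue ones for *SNHG3*, *SNHG12*, *SNHG15*, *SNHG16* and *SNHG17*, which were lower in KYSE30 and higher in the libraries labelled U138MG, and *SNHG33* has no value in KYSE30.

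In the libraries labelled U138MG some hosts fell and others rose, as among all genes tested. The deepest fall was that of *SNHG19*, with 21.2, 20.9 and 21.0 normalized CPM under DMSO and 8.68, 9.75 and 8.77 under PTDSS1i (log2 fold change -1.21, SE 0.087, adjusted p = 5.54e-13). *SNHG7* went from 45.3, 46.6 and 43.3 to 24.6, 21.7 and 21.6, a change of -0.995 (adjusted p = 4.74e-14), having kept 90.0 ± 3.00 and 91.5 ± 0.847 normalized CPM (SD, n = 3) in KYSE30. *SNHG4* fell by 0.92 on the log2 scale (adjusted p = 9.38e-13). The falls of *SNHG9* (-0.55), *SNHG8* (-0.38), *SNHG1* (-0.37), *SNHG32* (-0.21) and *SNHG29* (-0.10) were smaller. *SNHG26* was at 7.08, 6.91 and 6.91 under DMSO and at 4.43, 4.28 and 3.91 under PTDSS1i, a difference of -0.73 given without a p, as it reached 5 CPM under DMSO only. The treatments did not overlap in 14 of the 19 SNHG genes at or above 5 CPM under both treatments, a share near the 71.4% over all genes tested. *SNHG29* did not pass without DMSO replicate 1, PTDSS1i replicate 1 or PTDSS1i replicate 2 (adjusted p = 0.103, 0.115 and 0.0751).

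The hosts that rose in the libraries labelled U138MG did so by less. *SNHG12* had 22.9, 24.7 and 23.3 normalized CPM under DMSO and 35.5, 33.1 and 33.2 under PTDSS1i, a log2 fold change of 0.52 (SE 0.065, adjusted p = 5.31e-08). *SNHG33* (0.41), *SNHG17* (0.37), *SNHG16* (0.30), *SNHG15* (0.27) and *SNHG3* (0.18) also rose. With scaling by library size alone, which shifted the median over all genes by -0.146, or with upper-quartile scaling, 3 of the 6 still rose (*SNHG12*, *SNHG16* and *SNHG17*), and *SNHG3*, *SNHG15* and *SNHG33* had no adjusted p under 0.05 although their values stayed above 0. The values of *SNHG4* and *SNHG12*, the hosts with the longest pyrimidine runs printed above, went in opposite directions here, and both fell in KYSE30. *SNHG5*, *SNHG6*, *SNHG10*, *SNHG11*, *SNHG20* and *SNHG30* did not pass the test.

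An interaction term of line and treatment, fitted over the genes present in both tables, tested whether the lines differed in their response. For KYSE30 30984 genes were listed and for the other libraries 78691, and the annotation is not given. A difference in how reads of overlapping genes were assigned therefore cannot be told apart from a difference between the lines. Of the 20 SNHG genes, 11 had a higher change in the libraries labelled U138MG than in KYSE30 and 3 a lower one, while of all 18405 genes tested 25.5% were higher and 24.4% lower. The largest positive difference was that of *SNHG15*, whose change differed by 1.20 (adjusted p = 5.3e-10), followed by *SNHG17* with 1.04 (adjusted p = 1.39e-08), *SNHG26* with 0.86, given without a p, *SNHG20* with 0.84 (adjusted p = 1.93e-05) and *SNHG3* with 0.82 (adjusted p = 6.14e-10). *SNHG9* (-1.29), *SNHG7* (-1.06) and *SNHG19* (-0.65) differed the other way. For *SNHG32* (-0.07, adjusted p = 0.504) and *SNHG29* (0.12, adjusted p = 0.107) the difference did not pass the test.

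The remaining snoRNA hosts among the members were *GAS5*, *ZFAS1*, *DANCR* and *EPB41L4A-AS1*. *GAS5*, whose name comes from its accumulation in growth-arrested cells, had 100, 104 and 110 normalized CPM in KYSE30 under DMSO and 95.6, 91.5 and 97.2 under PTDSS1i, a log2 fold change of -0.15 (adjusted p = 0.022 in edgeR's test, 0.0702 in DESeq2). In the libraries labelled U138MG it went from 235, 229 and 220 to 262, 264 and 253, a change of 0.19 (adjusted p = 3.15e-05) that fell to 0.04 and did not pass with scaling by library size alone (adjusted p = 0.297) or by the upper quartile (adjusted p = 0.312). The KYSE30 change did not pass without DMSO replicate 3, PTDSS1i replicate 1 or PTDSS1i replicate 2 (adjusted p = 0.0959, 0.0528 and 0.122). The difference between the lines was 0.29 (adjusted p = 0.000267). *DANCR* fell in KYSE30 from 18.0 ± 0.829 to 13.2 ± 1.25 (-0.45, adjusted p = 0.000135) and in the libraries labelled U138MG from 31.3 ± 0.502 to 20.1 ± 1.24 (-0.64, adjusted p = 3.67e-09). *EPB41L4A-AS1* had 64.8, 64.2 and 62.5 normalized CPM and then 34.7, 31.5 and 30.6 in the libraries labelled U138MG, a fall of 0.98 on the log2 scale (adjusted p = 1.21e-15), against -0.22 in KYSE30 (adjusted p = 0.0405), where it did not pass without any library other than DMSO replicate 1 (adjusted p up to 0.131). *ZFAS1* fell by 0.33 in the libraries labelled U138MG (adjusted p = 3.26e-09) and by 0.07 in KYSE30, where it did not pass (adjusted p = 0.463).

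Proteins that bind and mature snoRNAs were read from a list of 16 genes chosen by hand. In KYSE30 15 of the 16 fell and 0 rose, with a median of -0.81 beside -0.03 over all genes. Among them were the box C/D proteins *FBL*, the methyltransferase (-0.91), *NOP56* (-1.04) and *NOP58* (-1.07), and the H/ACA proteins *DKC1*, the pseudouridine synthase (-0.86), and *NHP2* (-0.81). In the U138MG-labelled libraries 8 rose and 5 fell, with a median of 0.11: *DKC1* (0.18), *GAR1* (0.59) and *NOLC1* (0.62) rose, and *FBL* (-0.36), *NOP56* (-0.26) and *NOP58* (-0.27) fell. The change was higher there than in KYSE30 in 15 of the 16 genes by the interaction test. Among 54 protein-coding hosts of snoRNAs, mostly ribosomal protein and translation genes, 26 fell and 4 rose in KYSE30, and 25 fell and 18 rose in the libraries labelled U138MG. Of 21 NMD and exon junction factors, 11 fell and 4 rose in KYSE30 and 6 fell and 8 rose in the other libraries, with *UPF1*, the central helicase, at -0.32 and 0.07. Of 12 mRNAs known as NMD targets, 8 rose and 3 fell in KYSE30, and 7 rose and 4 fell in the libraries labelled U138MG. Several of those, such as *ATF4* (1.06 and 0.97) and *DDIT3* (2.03 and 3.37), are also genes of the stress response. Over all genes tested, 30.1% rose and 32% fell in KYSE30, and 33.9% rose and 33.6% fell in the libraries labelled U138MG. In the latter the NMD factors were near those shares, with 38.1% higher and 28.6% lower, as was the 33.3% of protein-coding hosts that rose. By the interaction test 25.5% of all genes were higher.

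The abundant nuclear lncRNAs did not move together. *MALAT1*, which collects in nuclear speckles, rose in both lines. It had 204, 260 and 238 normalized CPM in KYSE30 under DMSO and 442, 594 and 489 under PTDSS1i, a log2 fold change of 1.12 (SE 0.15, adjusted p = 0.00125). In the U138MG-labelled libraries it went from 1116, 1323 and 1284 to 1723, 1670.0 and 1825, a change of 0.49 (adjusted p = 0.000534). The KYSE30 change was the larger by 0.67 (adjusted p = 0.0105). *TALAM1*, listed only for the other libraries, changed by 0.05 and did not pass (adjusted p = 0.661).

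*NEAT1* moved in opposite directions in the lines. In KYSE30 it had 534, 631 and 573 normalized CPM under DMSO and 602, 758 and 684 under PTDSS1i, and the treatments overlapped. Its log2 fold change of 0.23 had an adjusted p of 0.0235 and did not pass with scaling by library size alone or by the upper quartile, nor without replicate 1 or 3 of DMSO or replicate 2 of PTDSS1i (adjusted p = 0.197, 0.0876 and 0.0939). In the U138MG-labelled libraries it went from 1922, 2009 and 2032 to 1771, 1706 and 1475, a fall of 0.27 on the log2 scale (adjusted p = 0.00992) that did not pass without DMSO replicate 2 or 3 (adjusted p = 0.0687 and 0.0744). The difference between the lines was -0.54 (adjusted p = 0.00334). Of 15 genes of paraspeckle proteins, which *NEAT1* assembles, 12 fell and 1 rose in KYSE30 and 11 fell and 2 rose in the libraries labelled U138MG, with *SFPQ* at -0.37 and -0.84 and *NONO* at -0.32 and -0.50. Over all genes tested, 32% fell and 30.1% rose in KYSE30, and 33.6% fell and 33.9% rose in the other libraries. *KCNQ1OT1*, an imprinted chromatin-bound lncRNA, changed by 0.18 in the libraries labelled U138MG and did not pass (adjusted p = 0.0932).

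*H19*, an imprinted lncRNA and the precursor of miR-675, had the highest level per length among the 549 members with an exon length in GENCODE release 29 and fell in both lines. In the U138MG-labelled libraries it had 1717, 1879.8 and 1738 normalized CPM under DMSO and 647, 669 and 614 under PTDSS1i, a log2 fold change of -1.47 (SE 0.039, adjusted p = 7.75e-21). In KYSE30 it went from 377, 391 and 402 to 172, 197 and 174, a change of -1.11 (SE 0.057, adjusted p = 2.74e-13). The treatments did not overlap in either line, and the fall was the deeper by 0.40 in the libraries labelled U138MG (adjusted p = 2.2e-05). *H19* lies at chr11:1995176-2001470 on the minus strand and overlapped no other gene in GENCODE release 29.

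The microRNA hosts, 16 members with *H19*, split as well, with 3 higher and 6 lower of 15 tested in KYSE30, beside 30.1% and 32% of all genes. In the other libraries 12 of them were at or above 5 CPM under both treatments, of which 4 were higher and 4 lower, beside 33.9% and 33.6%. The remaining 4 reached 5 CPM through 1 treatment, on which their choice leaned. Poly-A libraries count the host transcript and not the mature microRNA, whose level was not measured. The mature sequences of the hosts described here are shown, from RefSeq (GRCh38.p14), with the seed, bases 2 to 8, in capitals. None of the 4 shares its seed with another of them.
hsa-miR-22-3p: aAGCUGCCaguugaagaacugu
hsa-miR-23a-3p: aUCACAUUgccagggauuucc
hsa-miR-205-5p: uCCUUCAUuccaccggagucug
hsa-miR-675-5p: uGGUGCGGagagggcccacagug

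*MIR22HG*, the host of miR-22 at chr17:1711493-1717174, rose most among the hosts and did so in both lines. In KYSE30 it had 11.5, 9.57 and 8.92 normalized CPM under DMSO and 42.3, 44.1 and 43.5 under PTDSS1i, a log2 fold change of 2.12 (SE 0.083, adjusted p = 3.14e-15). In the U138MG-labelled libraries it had 4.19, 1.58 and 2.97 and then 11.9, 11.3 and 11.5, a difference of 2.01. It reached 5 CPM there under PTDSS1i only. *MIR23AHG*, the host of the cluster of miR-23a, miR-27a and miR-24, rose in KYSE30 from 27.3, 27.5 and 29.01 to 46.0, 51.0 and 49.5 (0.80, adjusted p = 4.34e-10). Among the libraries labelled U138MG the treatments overlapped, with a change of 0.20 (adjusted p = 0.0142) that did not pass without DMSO replicate 3 or PTDSS1i replicate 1 (adjusted p = 0.119 and 0.0619), and the difference between the lines was -0.64 (adjusted p = 1.61e-06). *MIR205HG*, the host of the epithelial miR-205, was abundant in both lines and moved little, from 194 ± 9.09 to 218 ± 3.10 normalized CPM in KYSE30 (0.17, adjusted p = 0.00541) and from 136 ± 4.38 to 142 ± 4.88 in the libraries labelled U138MG (0.07, adjusted p = 0.107).

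*MIR4435-2HG* and *CYTOR*, lncRNAs from a duplicated segment of chromosome 2 whose reads may be split between near-identical copies, were lower in KYSE30 and higher in the libraries labelled U138MG. *MIR4435-2HG* went from 45.6, 42.4 and 47.2 to 30.2, 31.4 and 32.3 normalized CPM in KYSE30 (-0.53, adjusted p = 3e-07). Among the libraries labelled U138MG it went from 14.1, 13.1 and 13.9 to 28.1, 27.8 and 24.6 (0.97, adjusted p = 9.3e-12), and the changes differed by 1.46 (adjusted p = 1.25e-13). *CYTOR* fell in KYSE30 from 9.95 ± 0.626 to 6.28 ± 0.559 (-0.66, adjusted p = 2.56e-05) and stood at 3.28 ± 0.583 and 7.74 ± 0.517 in the libraries labelled U138MG, a difference of 1.25. *MIR600HG*, *MIR9-3HG* and *MIR1915HG* fell in both lines, by 0.42, 0.79 and 0.39 on the log2 scale in KYSE30 and by 0.66, 0.75 and 0.54 in the other. *MIR9-1HG*, at or under 0.495 normalized CPM in every KYSE30 library, rose in the libraries labelled U138MG from 5.95 ± 0.515 to 20.6 ± 1.20 (1.79, adjusted p = 1.22e-15).

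Of the listed lncRNAs much studied in cancer, 10 were members. In KYSE30 3 of them rose and 4 fell of 9 tested, beside 30.1% and 32% of all genes. Of the 6 at or above 5 CPM under both treatments in the other libraries, 2 rose and 3 fell there, beside 33.9% and 33.6%. *LUCAT1*, a stress-induced transcript at chr5:91054834-91314547 whose promoter is printed above, rose in KYSE30 from 5.47, 4.03 and 5.22 to 14.5, 13.8 and 13.5 normalized CPM (1.503, SE 0.12, adjusted p = 2.3e-10). Among the libraries labelled U138MG it had 3.64, 4.78 and 3.77 and then 29.01, 27.4 and 22.5, a difference of 2.68, and it reached 5 CPM under PTDSS1i only. *HOTAIR*, transcribed from the HOXC cluster, fell in KYSE30 from 3.56, 4.03 and 4.33 to 2.56, 1.93 and 1.94 (-0.89, adjusted p = 0.000133). Among the libraries labelled U138MG it had 14.6, 12.6 and 11.8 under DMSO and 2.50, 1.93 and 2.11 under PTDSS1i, a difference of -2.57. *HOTAIR* reached 5 CPM there under DMSO only, so its values in those libraries, like those of *LUCAT1*, are a description. In KYSE30 no treated library overlapped a control library in either gene, while 66.3% of all genes tested there did not overlap.

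*NORAD*, a cytoplasmic RNA that binds PUMILIO proteins, rose in both lines, from 316, 338 and 342 to 433, 421 and 443 normalized CPM in KYSE30 (0.38, adjusted p = 1.39e-06) and from 729, 739 and 730 to 869, 899 and 882 in the libraries labelled U138MG (0.27, adjusted p = 2.16e-08). *PVT1*, the neighbour of *MYC*, fell in both, by 0.81 on the log2 scale in KYSE30 (adjusted p = 3.93e-08) and by 0.27 in the other libraries (adjusted p = 1.37e-07). Its level differed widely, at 19.5 ± 1.26 normalized CPM in KYSE30 and 334 ± 6.36 in the libraries labelled U138MG under DMSO. The tables were normalized separately, however, and may differ in how reads were assigned to genes. *OIP5-AS1* rose in the libraries labelled U138MG from 124, 120 and 125 to 195, 211 and 209 (0.74, adjusted p = 3.05e-16) and did not pass in KYSE30 (0.14, adjusted p = 0.0686). *TP53TG1*, named as a p53 target, fell in the libraries labelled U138MG from 24.1 ± 1.41 to 12.4 ± 0.441 (-0.97, adjusted p = 1.52e-11) and stood at 18.0 ± 1.06 and 19.4 ± 0.445 in KYSE30 (adjusted p = 0.227). *FTX*, a lncRNA of the X-inactivation centre, was higher in KYSE30 (0.34, adjusted p = 0.00117) and lower in the libraries labelled U138MG (-0.58, adjusted p = 5.73e-06), while *JPX*, whose exons overlap *FTX* in the annotation, was lower in KYSE30 (-0.49, adjusted p = 0.000132) and did not pass in the other (-0.01, adjusted p = 0.893).

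**Figure D3:**
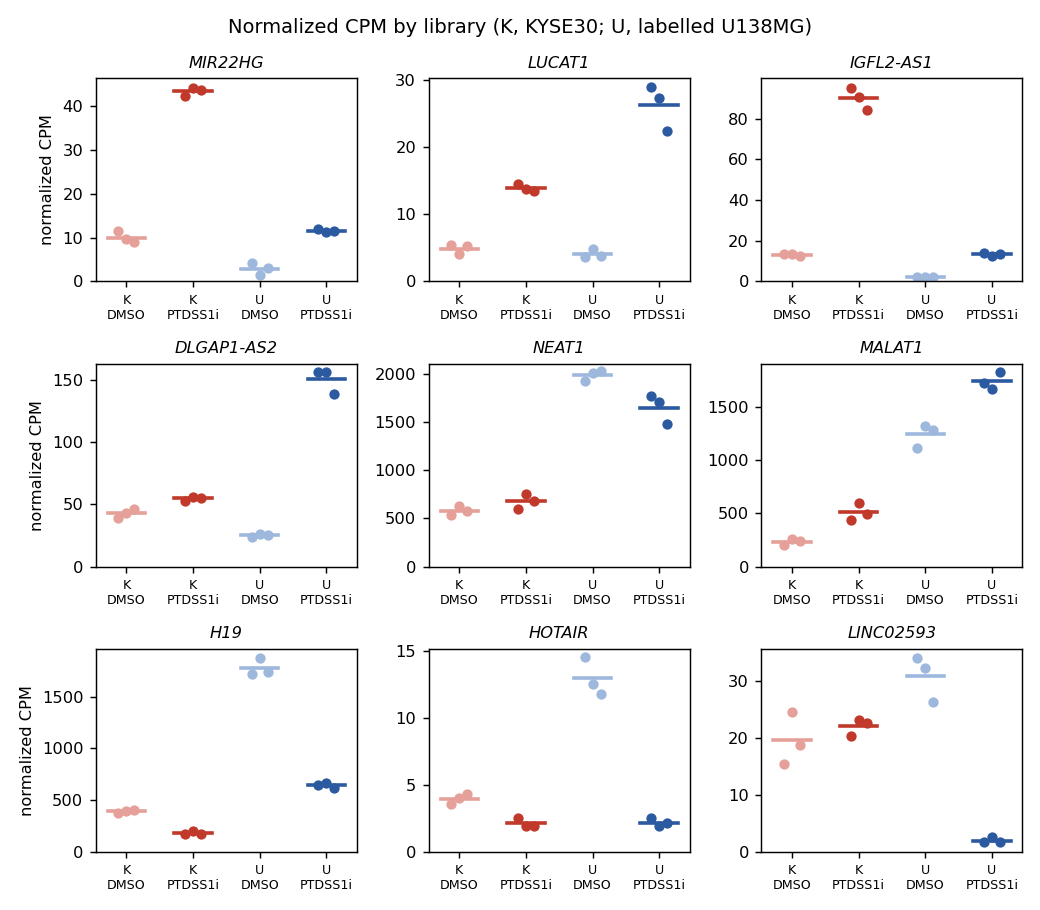
Normalized CPM in each of the 12 libraries (points, with the group mean as a line) for 9 members in KYSE30 (K) and the libraries labelled U138MG (U), each axis starting at 0. *MIR22HG*, *LUCAT1* and *IGFL2-AS1* were higher under PTDSS1i in both lines, *H19* and *HOTAIR* were lower in both, *NEAT1* overlapped in KYSE30, and *LINC02593* went from 30.9 to 1.97 normalized CPM in the libraries labelled U138MG and overlapped in KYSE30.

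The largest rises in KYSE30 started from low levels. *LINC01559*, ENSG00000289609 and ENSG00000272851 had at most 3 counts in every DMSO library and were at least 4.98-fold, 9.13-fold and 4.11-fold higher under PTDSS1i, taking 3 counts per library as the floor. *IGFL2-AS1* was well expressed, with 13.4, 13.3 and 12.5 normalized CPM under DMSO and 95.2, 90.6 and 84.4 under PTDSS1i, a rise of 2.79 on the log2 scale (SE 0.069, adjusted p = 3.22e-18). Among the libraries labelled U138MG it had 2.39, 2.09 and 2.08 and then 13.9, 12.3 and 13.6, a difference of 2.60. *SMIM29-AS1* rose by 2.70 (adjusted p = 4.75e-08) but from 0.358 ± 0.0961 to 2.39 ± 0.415 normalized CPM.

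The deepest falls in KYSE30 included transcripts named as antisense. *TMPO-AS1* went from 9.47, 8.81 and 7.86 to 2.89, 2.60 and 2.64 normalized CPM (-1.68, adjusted p = 5.73e-10) and also fell in the libraries labelled U138MG, from 17.4, 21.8 and 21.6 to 9.33, 9.33 and 8.53 (-1.16, adjusted p = 1.45e-11). Its partner *TMPO*, which encodes lamina-associated polypeptides, fell by 1.36 and 0.57. The pair shares exon bases, so that reads of the partner may be counted on it. *VPS9D1-AS1* went from 11.5, 10.5 and 9.77 to 2.93, 2.70 and 3.63 in KYSE30 (-1.76, adjusted p = 1.82e-10) and did not pass in the libraries labelled U138MG (0.12, adjusted p = 0.387). *FIRRE*, an X-linked lncRNA of nuclear organization, fell by 1.66 on the log2 scale in KYSE30 (adjusted p = 1.47e-06) and was at 7.16 ± 0.286 and 2.87 ± 0.131 normalized CPM in the libraries labelled U138MG. ENSG00000280383 (-2.07) and *ENTPD3-AS1* (-1.77) fell from 1.48 ± 0.354 and 1.05 ± 0.0680 normalized CPM.

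The members with the largest differences in the libraries labelled U138MG had all reached 5 CPM through only 1 treatment, so their values are given as a description. *CERNA2* had 11.9, 12.5 and 8.73 normalized CPM under DMSO and 0.131, 0.184 and 0.319 under PTDSS1i, a log2 difference of -5.64. *LINC02593* had 34.1, 32.3 and 26.4 and then 1.75, 2.53 and 1.63, a difference of -3.98, and in KYSE30 it did not pass the test (0.18, adjusted p = 0.35). *LINC02984* (-2.90), ENSG00000290920 (-3.06) and ENSG00000272438 (-2.69) were the next lowest. On the other side, *LOC107986668* had 0 counts in every DMSO library and 10.8, 8.96 and 12.4 normalized CPM under PTDSS1i, at least 78.3-fold higher against the floor of 3 counts per library. *PHLDA1-AS1* had 0.997, 0.0427 and 0.798 and then 7.89, 10.0 and 12.7, and its DMSO replicates were uneven. ENSG00000263325 (3.31), ENSG00000289609 (3.25) and ENSG00000204876 (3.13) followed.

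Members at or above 5 CPM under both treatments gave smaller differences. *DLGAP1-AS2*, whose promoter is printed above, rose in the libraries labelled U138MG from 24.1, 26.4 and 25.3 to 156, 157 and 139 normalized CPM (2.57, SE 0.053, adjusted p = 1.81e-23). In KYSE30 it went from 39.3, 43.5 and 46.0 to 53.1, 56.1 and 55.5 (0.35, adjusted p = 5.8e-05), and the changes differed by 2.18 (adjusted p = 1.63e-19). *RUSC1-AS1*, whose exons overlap FDPS in the annotation, an enzyme gene of sterol synthesis, went from 28.3, 26.5 and 26.5 to 85.1, 91.0 and 79.7 in the libraries labelled U138MG (1.66, adjusted p = 9.6e-21) and from 2.54, 4.03 and 2.97 to 1.54, 1.68 and 1.65 in KYSE30 (-0.96, adjusted p = 0.000312). Its part in the reads of FDPS cannot be told apart, and its named partner *RUSC1* changed by -0.05 and -0.22.

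For 235 members named after a protein-coding gene, the change was set beside that of the partner. In KYSE30 both passed the test in 74 pairs, and 48 of these went the same way, 27 of 45 antisense and 21 of 29 divergent pairs. Within the libraries labelled U138MG both passed in 115 pairs and 77 went the same way, 64 of 87 antisense but 12 of 25 divergent pairs. Across the pairs tested, Pearson's r of the log2 fold changes was 0.46 over 170 pairs in KYSE30 and 0.48 over 220 pairs in the other libraries. These are descriptions, since the pairs share libraries and many share reads. Some pairs also hold members that reached 5 CPM in the libraries labelled U138MG through 1 treatment only. *PAX8-AS1* rose with *PAX8* in KYSE30, by 2.48 and 3.38, and *MVP-DT* with *MVP* by 1.77 and 0.90. *VPS9D1-AS1* fell by 1.76 on the log2 scale while *VPS9D1* rose by 0.64 (adjusted p = 1.05e-06), and *ANXA2R-OT1* rose by 1.89 while *ANXA2R* did not pass (-0.12, adjusted p = 0.738).

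Within the libraries labelled U138MG *PHLDA1-AS1* and *PHLDA1* were higher by 4.09 and 3.64. *UNC5B-AS1* rose by 2.54, from 5.14, 7.81 and 7.22 to 41.9, 38.4 and 38.2 normalized CPM, and *UNC5B*, a netrin receptor gene, by 0.82. *HOXC13-AS* (-2.48) was lower with *HOXC13* (-1.10), and *GRHL2-DT* (-2.31) with *GRHL2* (-0.76), which encodes an epithelial transcription factor. *PSMG3-AS1* was lower (-2.13) where *PSMG3* rose (0.23). Of these, *PHLDA1-AS1* reached 5 CPM under PTDSS1i only, and *HOXC13-AS*, *GRHL2-DT* and *PSMG3-AS1* under DMSO only, so their values are a description. *SMIM29-AS1* did not pass (-0.03, adjusted p = 0.583) where *SMIM29* rose by 2.40.

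**Figure D4:**
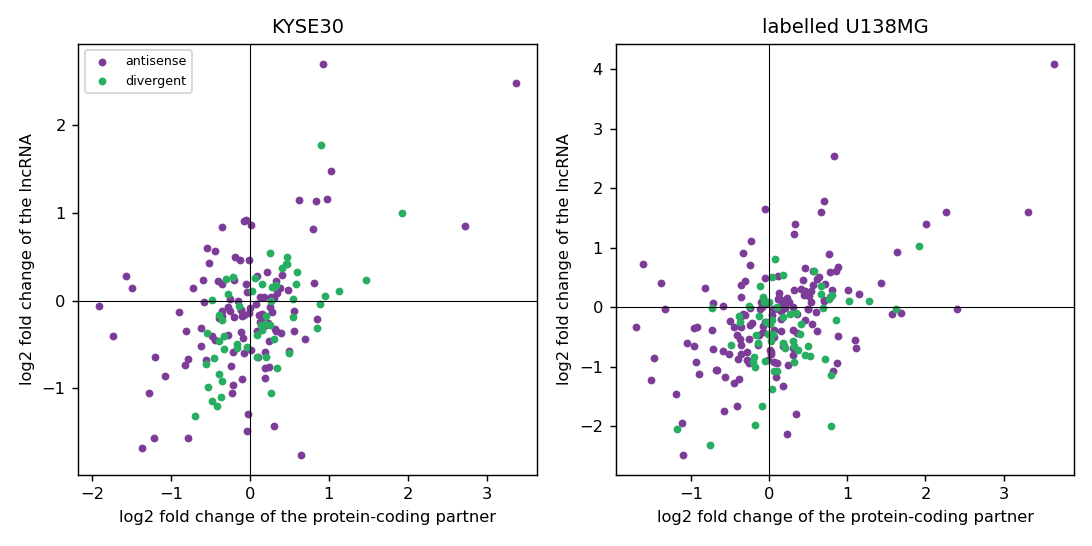
Log2 fold change of each lncRNA (vertical axis) against that of the protein-coding gene it is named after (horizontal axis), for antisense (purple) and divergent (green) members in KYSE30 and in the libraries labelled U138MG. Of the pairs in which both passed, 48 of 74 in KYSE30 and 77 of 115 in the libraries labelled U138MG went the same way.

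Across the lines, 457 members were tested in both. In 191 of them both tests passed, with 42 higher in both, 98 lower in both, 30 higher in KYSE30 and lower in the libraries labelled U138MG, and 21 the reverse. The share with the same sign was 73.3% of those 191, and 69.5% among all genes that passed in both. Over the 457 members Pearson's r was 0.43 and Spearman's rho 0.37, across genes of the same 12 libraries. By the interaction test 263 of 557 members differed between the lines, 93 with a higher and 170 with a lower change in the libraries labelled U138MG, where 49.9% of all genes did. Differences beyond 1 on the log2 scale were found in 31 members on the higher side and 64 on the lower, against 6.76% and 9.61% of all genes. These counts include members that reached 5 CPM through 1 treatment only, as do the counts for both lines above. Of 426 tested members at or above 5 CPM under both treatments, 80 had a higher and 117 a lower change. Beyond 1 on the log2 scale these were 24 and 37. Among members whose KYSE30 mean under DMSO was above 5 normalized CPM, *LINC02593* went apart most, with a difference of -4.20 given without a p, since it reached 5 CPM in the other libraries under DMSO only. *LINC02693*, with a difference of 2.56, had 27.5, 20.6 and 22.05 and then 13.8, 13.6 and 12.6 normalized CPM in KYSE30 (-0.81, adjusted p = 4.19e-07) and 3.29, 4.52 and 3.99 and then 13.2, 15.1 and 12.9 in the libraries labelled U138MG. *UNC5B-AS1* (2.54, which did not pass without KYSE30 DMSO replicate 2 or 3 or PTDSS1i replicate 1 or 3), *LINC02925* (-2.89) and *LOC100128770* had KYSE30 levels of at most 0.419 normalized CPM, and ENSG00000279232, *MYOSLID* and *CERNA2* had at most 3 counts in every KYSE30 library, so that no fold is given for them there.

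**Figure D5:**
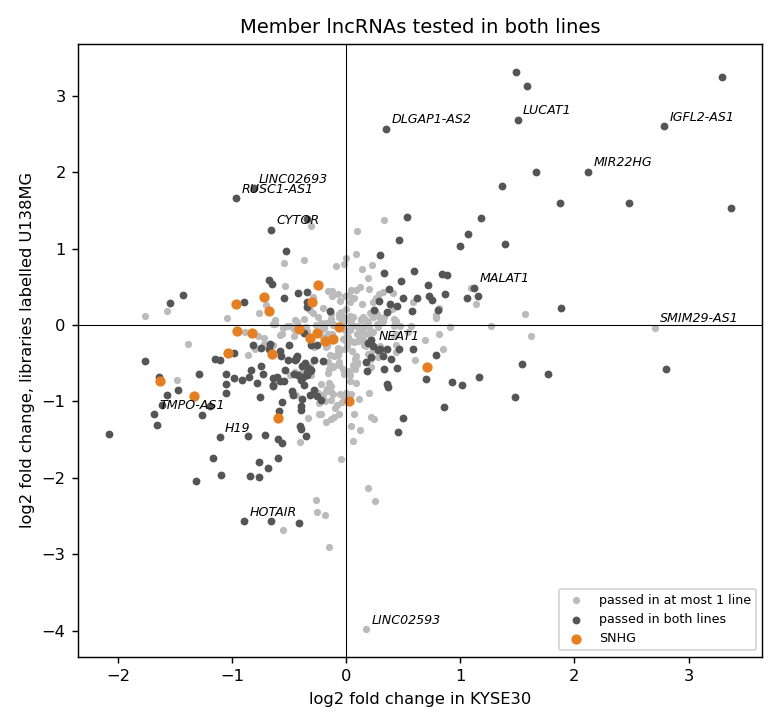
Log2 fold change of PTDSS1i against DMSO in KYSE30 (horizontal) and in the libraries labelled U138MG (vertical) for the 457 members tested in both, with dark points for the 191 that passed in both and orange points for SNHG genes. *MIR22HG*, *LUCAT1* and *IGFL2-AS1* lie in the upper right, *H19*, *HOTAIR* and *TMPO-AS1* in the lower left, and *RUSC1-AS1*, *LINC02693* and *CYTOR* in the upper left.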

How the data were processed

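RNA-seq of poly-A RNA was done on KYSE30 and on the cultures labelled U138MG, 3 libraries per group and 12 in all. The authors deposited raw counts of reads per gene, not normalized, with a table for each line. Per the labels' processing notes, Trimmomatic, STAR and featureCounts were used with hg38, and their versions, the annotation and the strand setting are not given in the sources used here. Groups were taken from the sample labels.

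Genes were kept by edgeR's filterByExpr (minimum count 10, minimum total count 15), scaled by TMM and tested with the robust quasi-likelihood method of edgeR at an adjusted p (Benjamini-Hochberg, whole table) under 0.05. Standard errors came from the test statistic. R 4.3.3, edgeR 4.0.16, limma 3.58.1, DESeq2 1.42.0, Python 3.11.15, pandas 2.3.3 and matplotlib 3.10.9 were used. Exon overlaps came from GENCODE release 29 and sequences from RefSeq (GRCh38.p14).

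The members, gene lists, motifs and naming rule were chosen with earlier results of these data known. Named were the SNHG members, the members on the lists, in each line the 5 largest rises and falls that passed without overlap of the treatments, the 5 largest interactions in each direction, in each line the 5 antisense, divergent, intronic or overlapping lncRNAs with the largest changes beside their protein-coding partner, at most 3 leading genes of each protein list, and the genes next to the level threshold. Any other gene named, such as *TALAM1* and further genes of the protein lists, was chosen after its values were seen. On simulated counts with 200 changed genes, edgeR found 181 in KYSE30 (16389 genes, 8 false calls) and 183 in U138MG (17666 genes, 10 false calls). The simulation gave every gene the same dispersion and changed few genes. In the data 62% of genes passed in KYSE30 and 67.5% in the other libraries, so its false calls need not hold there. Replicates were apart by more than sampling noise (chi-square per degree of freedom 2.29 or above) and were counted as separate, and p-values measure the spread between these cultures. Folds against groups with no more than 3 counts in any library are bounds and cover counting error only. Alternatives were other scalings, DESeq2, other filters, a replicate block, omission of each library, a fold threshold and other choices of members.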

Additional observations from a re-analysis of the deposited data

Results flagged for a closer look

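Named members that were at or above 5 CPM under both treatments in the libraries labelled U138MG were picked out where the change under PTDSS1i differed between the lines by the interaction test. Values are the log2 fold change in the libraries labelled U138MG minus that in KYSE30. Line and batch cannot be told apart, nor can a difference in how reads were assigned to genes. The change was higher by more than 1 in the libraries labelled U138MG in *RUSC1-AS1* (2.58), *UNC5B-AS1* (2.54), *DLGAP1-AS2* (2.18), *VPS9D1-AS1* (1.84), *MIR4435-2HG* (1.46), *SNHG15* (1.20) and *SNHG17* (1.04). Smaller positive differences were found in *SNHG20* (0.84), *SNHG3* (0.82), *SNHG12* (0.73), *SNHG10* (0.68), *SNHG1* (0.63), *SNHG16* (0.57), *OIP5-AS1* (0.55), *PVT1* (0.51), *TMPO-AS1* (0.48), *JPX* (0.44), *SNHG4* (0.37), *SNHG6* (0.32) and *GAS5* (0.29). The change was lower by more than 1 in *LINC02925* (-2.89), *SMIM29-AS1* (-2.78), *MVP-DT* (-2.46), *ANXA2R-OT1* (-1.71), *SNHG9* (-1.29), *TP53TG1* (-1.12) and *SNHG7* (-1.06). It was lower by less in *FTX* (-0.95), *EPB41L4A-AS1* (-0.80), *MALAT1* (-0.67), *SNHG19* (-0.65), *MIR23AHG* (-0.64), *NEAT1* (-0.54), *H19* (-0.40), *ZFAS1* (-0.30), *MIR600HG* (-0.28) and *NORAD* (-0.15). *UNC5B-AS1* and *LINC02925* were near the detection limit in KYSE30, and the difference of *UNC5B-AS1* did not pass without KYSE30 DMSO replicate 2 or 3 or PTDSS1i replicate 1 or 3 (adjusted p between 0.0589 and 0.229). The difference of *NORAD* did not pass without KYSE30 PTDSS1i replicate 3, U138MG DMSO replicate 2 or U138MG PTDSS1i replicate 1 (adjusted p between 0.0631 and 0.0756). That of *TMPO-AS1* did not pass without KYSE30 DMSO replicate 1, KYSE30 PTDSS1i replicate 2 or 3 or U138MG DMSO replicate 1 (between 0.0627 and 0.0758). That of *MIR600HG* did not pass without KYSE30 DMSO replicate 1, KYSE30 PTDSS1i replicate 1 or 3, U138MG DMSO replicate 2 or U138MG PTDSS1i replicate 2 or 3 (between 0.0527 and 0.126).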

How the results depend on the processing

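Under the alternatives run, 0 changes of named members reversed. Counts of members have no direction to reverse. Across the alternatives they stayed near the main count in 169 cases and moved away from it in 31. Near was judged by a fixed ratio that lets moderate shifts pass, and omissions of single libraries are among these cases. A threshold of 1 on the log2 fold change left 30 higher and 29 lower members in KYSE30 and 51 and 94 in the libraries labelled U138MG, and of the SNHG genes 0 and 3 in KYSE30 and 0 and 1 in the other. A mean of at least 10 CPM left 59 and 78 in KYSE30 and 122 and 185 in the libraries labelled U138MG. Members overlapping no other gene in GENCODE release 29, an alternative chosen after seeing the data, gave 37 and 56 in KYSE30 and 43 and 90 in the other, with 6 SNHG genes lower in KYSE30 and 2 higher and 5 lower in the other. Members of at least 5 CPM in both treatments, also added later, gave 235 lower in the libraries labelled U138MG. These settings keep fewer genes by construction. The count of SNHG genes higher there was 3 with scaling by library size alone and 3 with upper-quartile scaling, and in KYSE30 it was 0 in DESeq2, with library size alone, without a filter on low counts and with at least 10 counts in every library. DESeq2 did not call *SNHG12*, *SNHG32* and *EPB41L4A-AS1* in KYSE30 or the difference of *MIR600HG*. Without a filter, *SNHG9* and *EPB41L4A-AS1* in KYSE30, *SNHG29* in the other libraries and the differences of *NORAD* and *MIR600HG* did not pass. Library size alone lost *MIR205HG* in KYSE30 and *MIR23AHG* in the other libraries. The cause was not tested.

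With each library left out, 86 to 106 members were higher and 132 to 152 lower in KYSE30, with 0 to 1 and 13 to 15 SNHG genes. In the libraries labelled U138MG the ranges were 184 to 206 and 330.0 to 343, with 6 and 8 to 10 SNHG genes. Across named members, 3082 values kept their direction and side of the threshold, 91 no longer passed and 45 newly passed.

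Same-numbered samples had weak correlations of their deviations (between -0.0029 and 0.0754), and different-numbered ones lay between -0.0760 and 0.0559. In KYSE30 the same-numbered values, 0.0204 or above, all exceeded the different-numbered ones, at most 0.0061. These values do not settle whether the numbers pair the samples, and the main test did not pair them. With the replicate block 104 members were higher and 154 lower in KYSE30, and 204 and 360.0 in the libraries labelled U138MG. *SNHG12* in KYSE30 no longer passed, while *OIP5-AS1* in KYSE30, *SNHG5* in the other libraries and the difference of *MIR205HG* newly did. Counts limit members near 3 reads per library, and shared exons limit overlapping ones.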
